A study of Saccharomyces cerevisiae with 12 samples.

Results

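Of the 3574 spots that could be ranked on this yeast array, 121 were low late in Congo Red in both mRNA abundance and synthesis rate. They were chosen from the authors' deposited table, which holds 6 columns of mRNA abundance and 6 of synthesis rate, 1 per time. A spot was ranked if it had all 12 values (4468 of the 6144 spots did) and a mean mRNA abundance above the 20th percentile. For each measure the log2 change from 0 min, less its median over the ranked spots, was averaged over 120, 180 and 240 min. D is that mean for mRNA abundance and S that for synthesis rate. The members are the spots among both the 300 lowest D and the 300 lowest S, so 179 further spots were low in D only and 179 in S only. Low values at 120, 180 and 240 min against 0 min are thus what defined the members and are given below as a description.

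The cells were Saccharomyces cerevisiae BY4741, a laboratory yeast strain grown in rich glucose medium, without a genetic change beyond those of that strain being named. They were sampled at 0 min, before the dye, and at 30, 60, 120, 180 and 240 min in Congo Red (30 µg/ml, a dose below the lethal one). At each time 3 arrays measured mRNA abundance, from labelled cDNA of total RNA, and 3 measured nascent transcription by genomic run-on. No culture without the dye was sampled after 0 min, so the dye and the time in culture cannot be told apart. The labels do not say that the arrays of a group came from separate cultures, so p-values measure the spread between arrays, which may be technical.

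The amount of an mRNA reflects the balance between its synthesis and its decay, and a transcript can become scarcer because less is made, because more is degraded, or both. Genomic run-on measures the first of these: permeabilised cells extend the transcripts that polymerases had already begun, with a labelled nucleotide, and the label taken up reports how many polymerases were at work on each gene. Congo Red binds the chitin of the yeast wall and disturbs its assembly, and yeast answers wall damage through the cell wall integrity kinase pathway. The files pair no spot with a gene and none of the spot identifiers matched the reference gene table (0 matches), so the roles of these transcripts are not described here.

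The label of the group speaks of coordinated repression, and the layout of the array bears on how that reads. Each spot belongs to 1 of 384 blocks (16 rows by 24 columns) and to 1 of 16 printing positions within its block. Printing position 3 held 57 of the 121 members (47.1%), against 220 of the 3574 ranked spots (6.16%). Of the ranked spots at that position 25.9% were members, and at the other positions 1.91% were (64 of 3354). Among the 15 members with the lowest sum of D and S, 14 were at position 3. The other positions held 0 to 10 members each, with none at positions 13, 15 and 16, 8 at position 2 and 10 at position 11. Across blocks the members were spread out: they lay in 106 blocks, in all 16 rows and in all 24 columns. The members are therefore called by their values, as spots low in both measures, and the main results are also given apart for the 57 at position 3 and the 64 elsewhere.

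**Figure D1:**
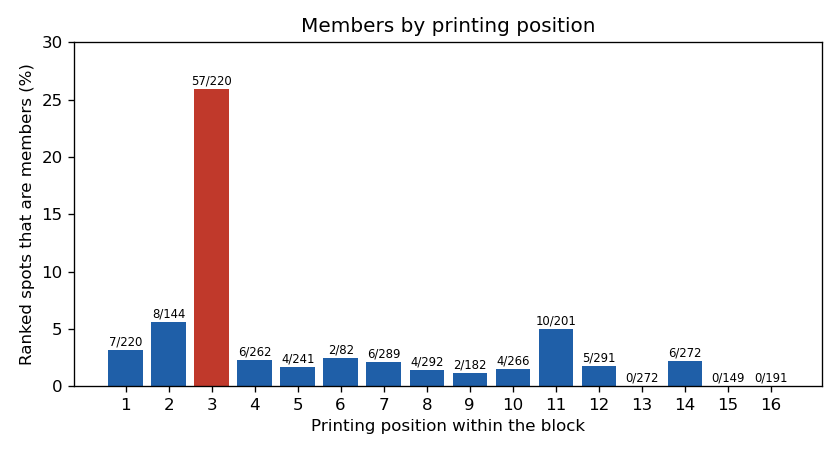
Share of the ranked spots at each printing position that are members (bars, in %), with members over ranked spots written above each bar. Position 3 (red) stands at 25.9%, and no other position exceeds the 8 members of 144 ranked spots at position 2.

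The excess at position 3 was present in each of the 2 rankings, and more so in synthesis rate. Position 3 held 25.3% of the 300 lowest D and 35.3% of the 300 lowest S. Of the 179 spots low in D only, 19 were at position 3, and of the 179 low in S only, 49 were. Over all 220 ranked spots at position 3 the median was -0.43 for D and -0.46 for S. At the other positions the median D ran from -0.42, at position 6, to 0.15, and the median S from -0.12 to 0.13. Position 3 thus had the lowest median of both.

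The arrays show the same position by itself. For each array, the offset of position 3 was a median over its spots kept for the tests (322 in mRNA and 334 in nascent transcription). The value of a spot was its quantile-normalised log2 intensity less its mean over the 18 arrays of the assay. On the mRNA arrays of 0 min (numbered 1, 2 and 3) it was 0.38, 0.55 and 0.14, and on those of 30 min 0.31, 0.34 and 0.00. It then went to 0.11, 0.10 and -0.31 by 60 min and to -0.07, -0.19 and -0.52 by 120 min. Arrays 1 and 2 of 180 min had -0.59 and -0.42 but array 3 had 0.40, and array 1 of 240 min had -0.77 but arrays 2 and 3 had 0.55 and 0.35. Every array of 0 min was above 0 and every array of 120 min below it, while the later arrays divided.

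On the nascent arrays the offset of position 3 followed the mRNA array of the same time and number. The 3 arrays of 0 min had 0.46, 0.36 and 0.21, those of 30 min 0.39, 0.18 and -0.08, and those of 60 min 0.30, 0.01 and -0.37. The arrays of 120 min had -0.00, -0.41 and -0.69, those of 180 min -0.27, -0.58 and 0.37, and those of 240 min -0.40, 0.29 and 0.27. In 17 of the 18 pairs of arrays with one time and number the 2 offsets had the same sign, and they differed by a median of 0.124 and by at most 0.375. Over the arrays the offset ranged by 1.32 in mRNA and by 1.15 in nascent transcription. At the other positions the ranges were 0.245 to 1.13 in mRNA, largest at position 9, and 0.144 to 1.04 in nascent transcription, largest at position 16. Those of position 3 were the widest in both assays.

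**Figure D2:**
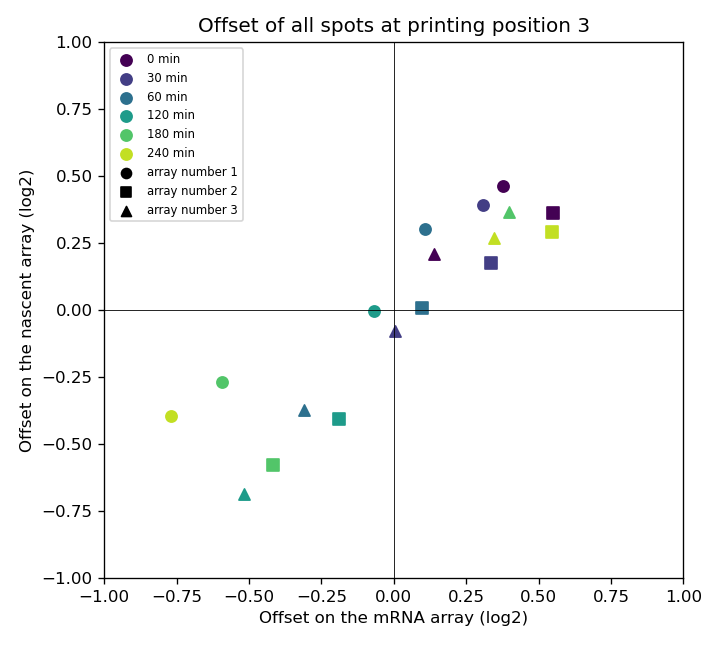
Offset of all spots at printing position 3 (median log2 intensity relative to each spot's mean over the arrays) on the mRNA array (horizontal axis) against the nascent array (vertical axis) of the same time (colour) and number (marker shape). The 18 points run from the lower left, with values down to -0.77 in mRNA and -0.69 in nascent transcription, to the upper right, with values up to 0.55 and 0.46.

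In the authors' deposited table the members were, at the median, at 0.534 of the typical spot in mRNA abundance and at 0.578 in synthesis rate over 120 to 240 min (D of -0.90 and S of -0.79). D ran from -1.92 to -0.64 and S from -2.49 to -0.48. D was below -1 in 41 members and S in 25. At position 3 the medians were -0.94 for D and -0.87 for S, and elsewhere -0.83 and -0.69. The 3 ranked spots just inside the limit for D had -0.6323, -0.6300 and -0.6288, and the 3 just outside -0.6286, -0.6270 and -0.6263. For S the values were -0.4833, -0.4829 and -0.4827 inside and -0.4822, -0.4816 and -0.4785 outside. The limits thus fell in a continuous range of values.

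Within the members the 2 measures were of like size, which the rule favours because it asks for low values of both. D less S had a median of -0.11, was below 0 in 88 members and above 0 in 33. The limit for D was lower than that for S, which favours values below 0, so these counts are a description. In 75 members (62.0%) it lay within 0.25 of 0, as it did for 49.3% of all ranked spots. The spots low in D only had a median S of -0.22, and those low in S only a median D of -0.31, so both lists leaned to the low side in the measure that had not chosen them. Over all ranked spots D and S had a Pearson correlation of 0.597, given as a description: D and S come from arrays that share spots, printing positions and times.

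**Figure D3:**
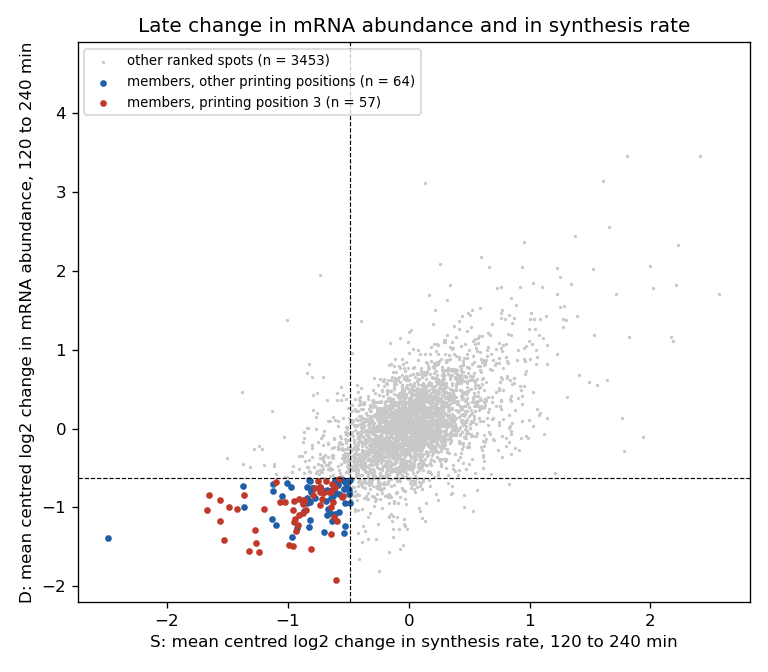
D (vertical axis, mRNA abundance) against S (horizontal axis, synthesis rate) for the 3574 ranked spots, both as log2 changes relative to the typical spot. Dashed lines mark the 300th lowest value of each measure, and the members in the lower left corner are red at position 3 (57) and blue elsewhere (64).

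The time course in the deposited table gives the members' values at every time. Relative to the typical spot, their median log2 change from 0 min in mRNA abundance was -0.42, -0.65, -0.87, -0.99 and -0.86 at the 5 later times, in order. In synthesis rate it was -0.21, -0.55, -0.94, -0.77 and -0.65. The median change was larger in mRNA at 30, 60, 180 and 240 min and larger in synthesis at 120 min. The mRNA change was the lower of the pair in 86, 74, 54, 95 and 81 members at the 5 times. The most frequent lowest time was 180 min for mRNA (66 of 121 members) and 120 min for synthesis (75 of 121). These values share the 0 min columns with D and S, so a low value at 30 or 60 min is not independent of the rule. The lists nearest to the members had similar courses in the measure that chose them. The median mRNA abundance of the spots low in D only was -0.40, -0.55, -0.76, -0.84 and -0.84, and the median synthesis rate of those low in S only was -0.19, -0.44, -0.74, -0.63 and -0.60. At 60 min both measures were below the typical spot in 116 members, against 31.1% of all ranked spots.

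The typical spot itself was lower late in the course. Its median log2 change in the table was 0.05, 0.03, -0.43, -0.60 and -0.66 in mRNA abundance and -0.01, -0.09, -0.32, -0.76 and -0.82 in synthesis rate from 30 to 240 min. Without centring, the members at 240 min were at a median of 0.348 of their 0 min value in mRNA abundance and 0.362 in synthesis rate. All ranked spots were at 0.632 and 0.567. Per the series' design text, synthesis rates had been normalised to cell volume, with factors of 1.17, 1.44 and 1.65 at 120, 180 and 240 min and of 1 before. A factor common to all spots of a time drops out of D and S. It does not drop out of the typical spot's change or of the fractions without centring. How far such a factor set those values, in synthesis rate or in mRNA abundance, was not tested.

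The 2 subsets of members followed different courses after 120 min. At position 3 the median mRNA abundance was -0.28, -0.66, -1.01, -1.13 and -0.79 at 30, 60, 120, 180 and 240 min, and the median synthesis rate -0.18, -0.65, -1.12, -0.82 and -0.59. Elsewhere mRNA abundance was -0.48, -0.62, -0.79, -0.94 and -0.93, and synthesis rate -0.21, -0.47, -0.82, -0.69 and -0.70. From 120 to 240 min the members at position 3 thus moved back toward the typical spot, by a median of 0.31 in mRNA and 0.53 in synthesis. The others stayed nearly level, with medians of -0.10 and 0.10. All 220 ranked spots of position 3 also came back, from -0.56 at 120 min to -0.25 at 240 min in mRNA and from -0.73 to -0.26 in synthesis.

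**Figure D4:**
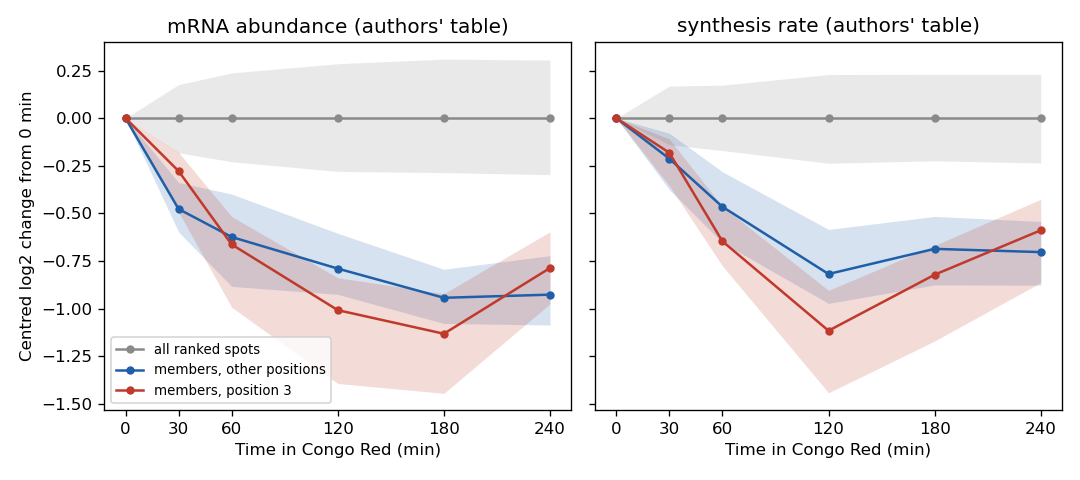
Log2 change from 0 min in the authors' deposited table, less the median of all ranked spots, in mRNA abundance (left) and synthesis rate (right) over the time in Congo Red. Points are medians and bands run from the 25th to the 75th percentile, for members at position 3 (red), members elsewhere (blue) and all ranked spots (grey).

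The single arrays separate the subsets further. After quantile normalisation, the members outside position 3 had median mRNA changes, from their mean at 0 min, of -0.92, -0.58 and -0.69 on the 3 arrays of 120 min. The arrays of 180 min gave -1.11, -0.92 and -0.96 and those of 240 min -1.03, -0.94 and -0.81. All 9 late mRNA arrays were low for these members, and the medians of the 3 arrays at 0 min, -0.12, 0.20 and -0.04, did not overlap with them. The rule chose the members by these times, so the low medians are given as a description. In nascent transcription the values were -0.69, -0.82 and -0.78 at 120 min and -0.70, -0.77 and -0.54 at 180 min. At 240 min they were -0.09 on array 1, -1.10 on array 2 and -0.76 on array 3. Array 1 of 240 min was thus close to the level at 0 min, unlike the other 8 late nascent arrays.

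For the members at position 3 the late arrays divided as the offset of the position did. In mRNA their medians were -0.83, -1.02 and -1.37 on the arrays of 120 min, but -1.51, -1.47 and -0.25 on those of 180 min and -2.01, -0.22 and -0.36 on those of 240 min. The nascent arrays of 120 min gave -0.61, -1.20 and -1.76, those of 180 min -0.92, -1.55 and -0.13, and those of 240 min -1.13, -0.33 and -0.53. The 3 arrays with values nearest 0 in both assays, array 3 of 180 min and arrays 2 and 3 of 240 min, are those on which the position's offset was above 0. On the same 3 arrays the spots at position 3 that are not members had medians of 0.07 to 0.23 in mRNA and 0.02 to 0.03 in nascent transcription. How far the position's offset set the values of these members was not tested.

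**Figure D5:**
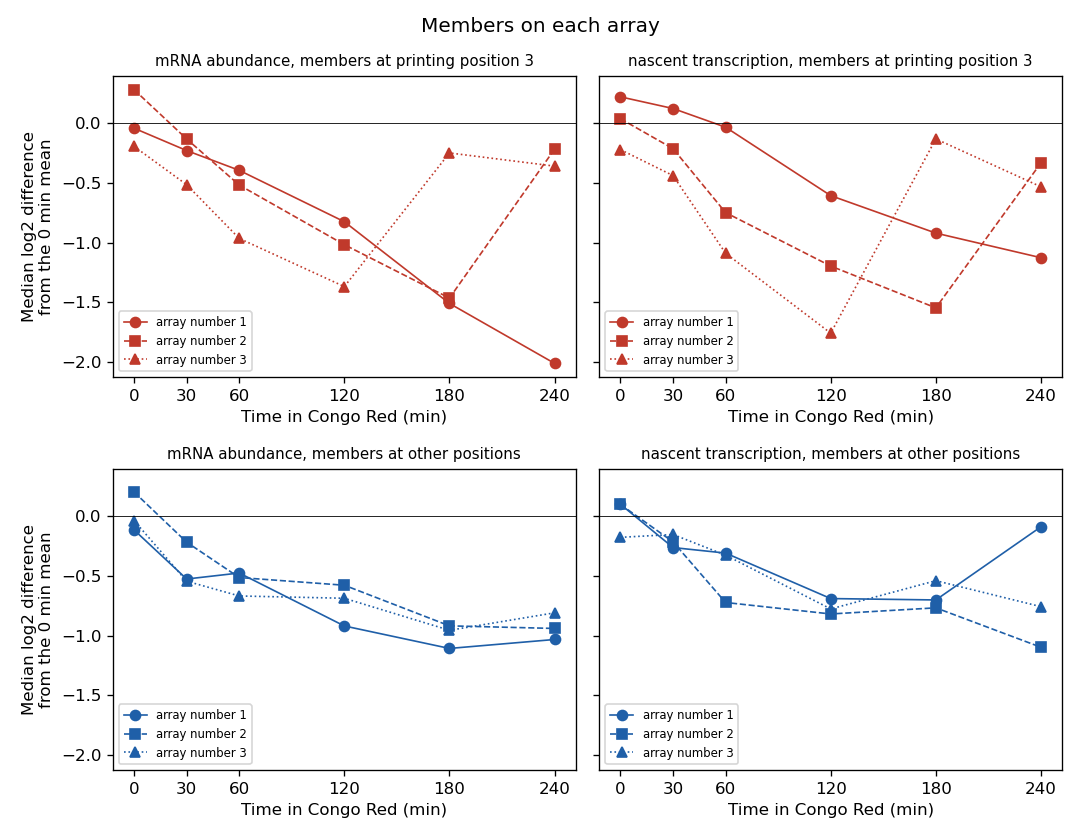
Median over members of the normalised log2 intensity on each array, less each spot's mean at 0 min (vertical axis), against time in Congo Red (horizontal axis), for mRNA (left) and nascent transcription (right). In the upper row (57 members at position 3) array 3 of 180 min and arrays 2 and 3 of 240 min lie highest of the late arrays. They run from -0.36 to -0.22 in mRNA and from -0.53 to -0.13 in nascent transcription. The other late arrays there reach up to -0.83 and -0.61. In the lower row (64 members elsewhere) the late mRNA arrays lie between -1.11 and -0.58.

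Spot by spot, arrays of the late times often lay wholly below those of 0 min. In mRNA all 3 arrays of 120 min were below all 3 of 0 min for 74 of 120 members with values on all arrays (6.11% of all spots), at 180 min for 67 (7.27%) and at 240 min for 56 (7.44%). Outside position 3 the counts were 33, 47 and 44 of 63, and at position 3 they were 41, 20 and 12 of 57. Over all spots at position 3 the shares were 32.9%, 15.6% and 8.36%. In nascent transcription the counts over all members were 89 of 120 at 120 min (11.6% of all spots), 59 of 119 at 180 min (8.84%) and 36 of 120 at 240 min (6.58%). At position 3 these were 43, 23 and 17 of 57, and elsewhere 46, 36 and 19. Over all spots at position 3 the nascent shares were 46.7%, 19.8% and 15.7%. All 9 late arrays lay below all 3 of 0 min for 40 of 120 members in mRNA (2.62% of all spots), of which 30 were outside position 3. In nascent transcription that held for 29 of 119 (3.21%), of which 16 were outside position 3. The rule used these times, so nothing is read from how far the counts exceed the shares over all spots.

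Fitted with limma over all spots, without the array number as a term, few members passed at the late times. Arrays of one number deviated together in mRNA, which this fit leaves in the spread between arrays. In mRNA, 0 members were called lower at 120 min (0% of all spots called lower), 8 at 180 min (0.369%) and 8 at 240 min (0.287%), all of them outside position 3 (adjusted p under 0.05). With the array number as a block, the calls rose to 38 (2.17%), 65 (5.84%) and 54 (5.74%). Of those, 34, 54 and 51 were among the 64 members outside position 3, and 4, 11 and 3 among the 57 at position 3. With positions centred and no block the mRNA calls were 1 (0.0819%), 18 (0.758%) and 17 (0.696%), and with both they were 45 (3.4%), 74 (6.84%) and 66 (6.68%). In nascent transcription 6, 3 and 2 members were called lower (0.156%, 0.137% and 0.0782% of all spots), and with the block 21 (0.958%), 10 (0.411%) and 10 (0.743%). Outside position 3 those counts were 3, 2 and 1, and with the block 12, 8 and 9. Without the block, leaving out any 1 array number left 0 to 5 members called at 180 min and 0 to 2 at 240 min in mRNA, and 0 to 1, 0 to 2 and 0 to 4 in nascent transcription. Leaving out number 2 left 0 members called at each late time in both assays, and leaving out number 1, whose nascent array of 240 min stood apart, gave the 4 nascent calls at 240 min. These calls repeat contrasts that chose the members and are given as a description.

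The change from 30 to 60 min is the one contrast between times that did not enter D or S, and it was tested in both assays. The filter on mean mRNA abundance did use the 30 and 60 min columns, as part of a mean over all 6 times. No member passed the test: of 4882 spots tested in mRNA and 5113 in nascent transcription, 0 were called lower (0% in each assay), with the lowest adjusted p among members at 1.00 in mRNA and 0.999 in nascent transcription. At an unadjusted p under 0.05 there were 38 spots in mRNA, 1 of them a member, and 125 in nascent transcription, 3 of them members. With the array number as a block these became 196 spots (4 members) and 261 spots (6 members), with 0 adjusted calls.

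The direction over this interval was nonetheless mostly downward among the members. In mRNA 103 of the 121 members had a fitted change below 0 (85.1%, against 49.1% of all spots), with a median of -0.23. In nascent transcription 109 did (90.1%, against 48.8%), with a median of -0.35. By array number the median over members was -0.13, -0.35 and -0.25 in mRNA (mean -0.24 ± 0.11, SD, n = 3) and -0.12, -0.52 and -0.31 in nascent transcription (mean -0.32 ± 0.20, SD, n = 3). All 3 numbers were below 0 in both assays, but with each printing position centred number 1 was at -0.00072 in mRNA, and at 0.02 for the 57 members at position 3. Members are not independent of each other, and these counts carry no test.

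That direction was seen in both subsets of members and was more frequent at position 3. There 56 of 57 members were below 0 in mRNA and 55 of 57 in nascent transcription, with medians of -0.37 and -0.42. Over all tested spots of position 3, 84.5% and 77.2% were below 0, with medians of -0.26 and -0.21. Outside position 3, 47 of 64 members were below 0 in mRNA and 54 of 64 in nascent transcription, with medians of -0.12 and -0.27. By array number those 64 members had mRNA medians of -0.03, -0.37 and -0.01, so array number 2 carried most of the mRNA change, and nascent medians of -0.09, -0.51 and -0.15. With each printing position centred on each array, 97 of 121 members were below 0 in mRNA and 107 in nascent transcription, with medians of -0.15 and -0.27. For the spots low in D only the medians without that centring were -0.08 and -0.10, and for those low in S only -0.07 and -0.21.

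Few members showed separate groups over the interval. In mRNA all 3 arrays of 60 min were below all 3 of 30 min for 5 of 121 members (1.54% of all spots), and all 5 were at position 3. They were 8.77% of the members there, against 8.33% of all spots at position 3 (26 of 312). With positions centred the count was 3 (1.75%). In nascent transcription it was 14 (3.83%), 8 of them at position 3, and 17 with positions centred (4.81%). A lower value at 60 min on each of the 3 array numbers was seen in mRNA for 54 members (12.6%), 41 of them at position 3 (71.9% of the members there, against 43.6% of all spots at that position). In nascent transcription it was seen for 67 (17.3%), 35 of them at position 3 (61.4%, against 40.2%). With positions centred these counts were 38 (14.4%) and 60 (18.2%).

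Whether mRNA and nascent transcription moved differently from 30 to 60 min was tested in a fit of all 36 arrays with the assay as a term. Of 4805 spots 0 were called (0%), and 17 had an unadjusted p under 0.05, 1 of them a member. The fitted mRNA change less the nascent change had a median of 0.12 over the members and was below 0 in 41 of them (33.9%, against 50.6% of all spots), 21 at position 3 and 20 elsewhere. It was below 0 in 26.8% of the spots low in S only and in 51.4% of those low in D only. By array number, the medians of the separate assays given above were nearly equal on number 1 (-0.13 and -0.12) and furthest apart on number 2 (-0.35 and -0.52).

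The members' levels among the ranked spots were not fixed over the first hour. At 0, 30 and 60 min their median mRNA abundance lay at percentiles 66.5, 53.7 and 46.0, and their median synthesis rate at 46.9, 41.7 and 29.4. The 0 min columns are the reference of D and S, so the rule favours high values there. The fall from 0 min is therefore a description. The members' median mRNA abundance in the deposited table, averaged over 30 and 60 min, was 2.26, at percentile 52.2 (59.5 at position 3 and 50.6 elsewhere). Their median synthesis rate was 0.0702, at percentile 34.1 (43.4 at position 3 and 30.0 elsewhere). The ratio of synthesis rate to mRNA abundance, which rises with turnover where level and decay are in balance, had a median of 0.0294 against 0.0390 over all ranked spots. At position 3 and elsewhere the ratio's medians lay at percentiles 34.8 and 37.9. The spots low in D only had a median ratio of 0.0167 and those low in S only 0.0489, on either side of the members. The scaling of the table, and whether it allows for the length of a gene, is not given in the sources used here, and the ratio shares its values with the columns compared above.

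The member with the lowest sum of D and S was spot R5 - C16 : 11, at printing position 11 (D of -1.39, S of -2.49, the largest D less S of all members at 1.09). Its deposited synthesis rate was 0.290 at 0 min and 0.0748, 0.0573, 0.0606, 0.0178 and 0.0343 at the later times. Its deposited mRNA abundance was 1.38, 1.15 and 1.28 from 0 to 60 min and 0.339, 0.488 and 0.273 from 120 to 240 min. In the table, synthesis was thus low from 30 min on, and mRNA from 120 min on.

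On the arrays, the normalised log2 nascent intensity of R5 - C16 : 11 was 6.47, 8.71 and 8.77 on the arrays of 0 min, 6.22, 7.57 and 6.01 on those of 30 min, and 6.15, 8.23 and 6.34 on those of 60 min. The late arrays read 6.36, 6.62 and 6.71 (120 min), 5.33, 7.13 and 5.22 (180 min) and 5.23, 7.32 and 6.23 (240 min). Array 1 of 0 min stood well below the others of its time and within the range of the later arrays. In mRNA the arrays of 0 min read 5.56, 5.00 and 6.41, those of 120 min 4.16, 5.02 and 4.11, and those of 240 min 4.19, 4.37 and 3.26. The groups of 0 and 120 min overlapped through array 2, and those of 0 and 240 min did not overlap. From 30 to 60 min the fitted change was 0.06 ± 0.44 (SE, 3 arrays a time) in mRNA and 0.31 ± 0.75 in nascent transcription, within the spread between arrays (limma, adjusted p = 1.00 in mRNA and 0.999 in nascent transcription).

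The member with the highest mRNA abundance at 30 and 60 min was spot R2 - C1 : 3, at printing position 3, whose mean there lay at percentile 97.7 in mRNA and 99.0 in synthesis. Its deposited mRNA abundance was 76.8, 45.3, 49.9, 32.1, 42.2 and 22.2 from 0 to 240 min, and its synthesis rate 1.08, 1.16, 0.833, 0.573, 0.357 and 0.472. In the deposited values both were lowest late, mRNA at 240 min and synthesis at 180 min. By the array means, mRNA was instead lowest at 180 min (10.15 in normalised log2 intensity, against 10.56 at 240 min). On the arrays its normalised log2 mRNA intensity was 11.46, 11.44 and 10.64 at 0 min and 10.11, 10.84 and 10.74 at 240 min, and these groups overlap. The fitted change from 30 to 60 min was -0.47 ± 0.49 in mRNA and -0.34 ± 0.46 in nascent transcription (limma, adjusted p = 1.00 in mRNA and 0.999 in nascent transcription).

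A further pair of members, from position 3 and from elsewhere, is given array by array. They are picked cases and do not stand for their positions. The member with the smallest D less S (-1.32), at position 3, had normalised log2 mRNA intensities of 7.79, 7.79 and 8.05 at 0 min and 6.70, 6.25 and 6.11 at 120 min. At 180 min it read 5.74, 5.80 and 7.89 and at 240 min 4.80, 7.80 and 7.89, so 3 of those 6 arrays were at the level of 0 min. The most abundant member outside position 3, chosen after its values were seen, had 9.20, 9.38 and 8.87 on the arrays of 0 min and 8.22, 8.96 and 8.25 on those of 120 min. The arrays of 180 min gave 8.25, 8.59 and 8.23 and those of 240 min 8.16, 8.36 and 8.35. Its 6 mRNA arrays of 180 and 240 min were all below those of 0 min. In nascent transcription this member read 7.39, 7.78 and 7.61 at 0 min and 7.56, 6.20 and 6.68 at 240 min, and these groups overlap. The member at position 3 read 7.35, 6.72 and 6.86 at 0 min and 5.35, 6.85 and 6.92 at 240 min in nascent transcription, and these overlap too. The outside member's nascent arrays of 120 min (6.885, 6.81 and 6.978) and 180 min (6.972, 6.818 and 6.885) were all below those of 0 min. For the member at position 3 that held at 120 min (6.694, 6.038 and 5.247) but not at 180 min (6.506, 5.48 and 7.063).

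When D and S were ranked after each of the 16 positions had been centred, 112 spots were low in both, and 76 of them were among the 121 members (62.8% of the members and 67.9% of the 112). That kept 60 of the 64 members outside position 3 and 16 of the 57 at position 3. Over all 121 members the position-centred medians were -0.35, -0.49, -0.68, -0.84 and -0.73 in mRNA from 30 to 240 min, and -0.11, -0.35, -0.64, -0.56 and -0.53 in synthesis. At position 3 they were -0.13, -0.28, -0.44, -0.71 and -0.53 in mRNA and -0.01, -0.27, -0.39, -0.31 and -0.32 in synthesis. Centring thus took the 120 min medians there from -1.01 to -0.44 and from -1.12 to -0.39. Elsewhere the centred medians were -0.48, -0.63, -0.77, -0.93 and -0.88 in mRNA and -0.22, -0.45, -0.76, -0.63 and -0.67 in synthesis, close to those without centring. With position 3 left out of the ranking, 104 spots were low in both. Leaving spots out does not reorder the rest, so all 64 members from the other positions were kept by construction.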

How the data were processed

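Each of the 36 array files holds 1 radioactive intensity per spot, deposited by the authors with no background column or flag. The sum over an array was 387129 to 1660990 for mRNA and 512224 to 1880500 for nascent transcription, and 14.9% to 18.2% of the spots of an array were at 0. The number of arrays limits the precision. No pair of arrays was identical (0 pairs). The table of 12 columns that the authors deposited holds 1 signal for each spot at each time and in each measure, with replicates combined. How it was scaled, the scanner and the image software are not given in these sources.

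Members were taken from that table by the rule given above. The members, the lists and the tests were chosen with earlier results of these data known. For the tests, intensities of 0 were set to missing, spots above 0 on at least 2 of 3 arrays in every group were kept, and log2 values were quantile normalised within an assay. Changes are therefore relative to the typical spot. Each assay was fitted by a linear model on the 6 times with limma 3.58.1 in R 4.3.3 (lmFit and eBayes), with Benjamini-Hochberg adjustment over all spots and a threshold of 0.05. The interaction over 36 arrays used array weights per assay. The fits were tested on simulated data. Other steps used Python 3.11.15 with pandas 2.3.3, numpy 2.4.6 and matplotlib 3.10.9. Members were named by a rule: the lowest sum of D and S, and the highest mRNA abundance at 30 and 60 min, with others described by rank.

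Replicates are only counted in the labels, and array numbers come from the numbering of the files. Arrays of one number deviated together from their group means in all 45 mRNA pairs (correlations of 0.612 to 0.833 across spots), so the number was also fitted as a block. In nascent transcription 15 of 45 pairs were at or below 0.1, and the block is an alternative there. Other alternatives were a common median or cyclic loess in place of quantiles, a pseudocount, a stricter filter, only the 2 times compared, each array number left out, and printing positions centred, the last partly added after seeing the data. Since spots carry no gene names, spots of one gene could not be averaged.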

Additional observations from a re-analysis of the deposited data

How the results depend on the processing

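From 30 to 60 min no member was called under any alternative, and the median over members stayed below 0 in both assays under all of them. Leaving out 1 array number moved that median between -0.31 and -0.17 in mRNA and between -0.45 and -0.24 in nascent transcription, with 0 spots called. The replicate block gave 0 calls in each test too; in this balanced design it leaves the medians of -0.23 and -0.35 as they are by construction. With a pseudocount of 1 and all spots, 1 spot was called in the interaction and 48 had an unadjusted p under 0.05. The mRNA change of R5 - C16 : 11 turned to -0.032 with positions centred, with or without the block, and ranged from -0.31 to 0.39 when 1 number was left out.

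The number of members was 79, 38 of them shared, with 30 and 60 min averaged in place of 0 min as the reference. Of those shared, 26 were at position 3 and 12 elsewhere. Other settings of the rule gave 84 to 171 spots, and the normalised arrays in place of the table gave 167, with 105 shared. On the arrays, leaving out 1 number gave 117 to 155. The late mRNA calls among members, 0, 8 and 8 at 120, 180 and 240 min, became 2, 18 and 17 on scaling to a common median, 3, 16 and 14 with cyclic loess, and 38, 65 and 54 with the block. The cause of these shifts was not tested. The 0 calls from 30 to 60 min do not show that members did not change.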

Other observations

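The division of the late arrays at printing position 3 was shared by spots there that are not members. At that position 19 further spots were low in D only and 49 in S only, so the spots that are not members were not all free of the ranking. Over the 265 tested spots of that position that are not members, the median mRNA change from the mean at 0 min was -0.77, -0.50 and 0.08 on the 3 arrays of 180 min and -0.95, 0.23 and 0.07 on those of 240 min. Array 3 of 180 min and arrays 2 and 3 of 240 min were again the 3 above 0. Printing position 9 had the next widest range of offset over the arrays in mRNA (1.13, but 0.578 in nascent transcription) and held 2 members. Position 16 had the next widest in nascent transcription (1.04, but 0.445 in mRNA) and held 0 members. Each was thus wide in only 1 assay, while membership needs low values in both measures.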
